A study of Homo sapiens with 24 samples.

Results

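Oxidative phosphorylation is the process by which mitochondria pass electrons from NADH and succinate along complexes I to IV of the respiratory chain, pump protons across the inner membrane and use the gradient in complex V, the ATP synthase, to make ATP. Most subunits are encoded in the nucleus and a few in the mitochondrial DNA (mtDNA). Butyrate, a short-chain fatty acid that gut bacteria make from fibre, is both a fuel oxidized in mitochondria of the colonic epithelium and an inhibitor of histone deacetylases. The genes described here are the nuclear ones whose names begin with NDUFA, NDUFB, NDUFC, NDUFS, NDUFV, UQCR, COX4 to COX8 or ATP5, together with SDHA, SDHB, SDHC and SDHD. They were chosen by name, but with earlier results of these data known. They comprised 110 of 34127 probes and 90 of 27274 gene names on the array. Of these, 105 probes of 86 genes were bright enough to be tested, among 18983 probes of 15154 genes, and 100 of the 110 probes stood well above background on all 24 arrays. The prefixes also take in 5 tested assembly factors (NDUFAF1 to NDUFAF4 and ATP5SL) and 3 tested genes that are not standard subunits (COX4NB, ATP5S and ATP5L2), which are kept apart below.

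All arrays were from HCT-116, a colon carcinoma line with hyperactive Wnt signaling, in 1 stably transfected clone that carried a Tet repressor and a doxycycline-inducible, FLAG-tagged DN-Tcf4. DN-Tcf4 is a Tcf4 that lacks its beta-catenin interaction domain and competes with the intact factor at Wnt target genes. The control arrays were from the same clone, so both vectors were present in every group and results from 1 clone may not hold for others. The 4 groups were cells that received neither agent (Ctl), 5 mM sodium butyrate (NaB), 4 µg/ml doxycycline (Doxy) and both agents (DoxyNaB), harvested after 17.5 hr, each in 6 numbered experiments. NaB/Ctl and DoxyNaB/Doxy ask what butyrate does without and with doxycycline. Doxy/Ctl, DoxyNaB/NaB and the interaction (NaB/Ctl minus DoxyNaB/Doxy) ask what doxycycline adds, where the drug and DN-Tcf4 cannot be told apart. By western blot, the paper found little DN-Tcf4 protein with doxycycline alone and much with both agents.

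The level of a probe is given throughout as log2 of its background-subtracted intensity relative to the 75th percentile of its own array, so that 0 is that percentile, and differences are in log2 units. The 75th percentile itself ranged from 380.2 to 1323 intensity units, and 52.7% to 88.1% of spots were well above background, with all arrays of experiments 2 to 4 above 78.4% and all others below 62.6%. Replicate arrays of a group correlated with r of 0.881 to 0.993 over tested probes. Experiments 2 to 6 each lay on 1 slide, but experiment 1 was split by butyrate over 2 slides, where treatment and slide cannot be told apart. Of 9 colon epithelial markers 8 were tested and VIL1 was not. Of 7 markers of other cells only CD14 and COL1A1 were tested (NaB/Ctl 1.35 and 1.09, adjusted p under 0.01 in limma). The CD14 call was lost in 4 of 18 alternative settings and the COL1A1 call in 1 of 19. The part of these markers in the results below was not tested. TCF7L2, the Tcf4 gene, whose probe cannot tell the construct from the cell's own transcript, was 4.04 higher in DoxyNaB than in Doxy (limma with Benjamini-Hochberg, adjusted p = 1.07e-08) but not in Doxy against Ctl (−0.17, adjusted p = 0.921). Other TCF7L2 probes differed in direction. AXIN2, a Wnt target, was lower in DoxyNaB than in NaB (−2.53, adjusted p = 2.64e-11) and in Doxy than in Ctl (−0.58, adjusted p = 0.0029). The Doxy/Ctl difference of AXIN2 was lost in 14 of 19 alternative settings.

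The genes on which the results turn most are those for subunit c of the ATP synthase, which forms the rotating ring of its membrane part. ATP5G1, ATP5G2 and ATP5G3 encode the same mature protein behind different targeting peptides, so only their transcripts tell them apart. The 30 bases at the start of each 60-base probe are shown because the comparison of the 3 genes rests on these probes. The probes were compared only with each other, so whether each also binds the transcripts of the other genes was not tested. At the best ungapped alignment of the whole probes, ATP5G1 and ATP5G2 matched at 21 of 60 bases, ATP5G1 and ATP5G3 at 26 and ATP5G2 and ATP5G3 at 29. The ATP5G1 probe lies at chr17:44325797-44326771 (plus strand, across an intron), the ATP5G2 probe at chr12:52345344-52345403 (minus strand) and the ATP5G3 probe at chr2:175751260-175751319 (minus strand), all in NCBI36.
ATP5G1: ttattcatttctccagctctgatccgctgt
ATP5G2: tgtctgatggtagcctttctcatcctcttt
ATP5G3: tgaagctatgggtctcttttgtttgatggt

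Complex II (succinate dehydrogenase) is the only respiratory complex with no mtDNA-encoded subunit, and its 4 genes did not respond alike. The promoters of 3 of them are shown (SDHC had no entry in the table used), as the bases before the transcription start that no neighbouring gene covers, from RefSeq on GRCh38.p14, read 5′ to 3′ on the strand of the gene. Capitals mark matches, on either strand, to the palindromic site of the factor NRF1, to CCGGAAG (the ETS family, which includes GABP) or to the site of YY1, each searched as 1 fixed string. The ETS and YY1 strings share the letters AAG and can overlap there. The SDHA stretch is chr5:218154-218319 (plus strand, 166 bases) and the SDHB stretch chr1:17054033-17054282 (minus strand, 250 bases). The SDHD stretch is chr11:112086757-112086872 (plus strand, 116 bases).
SDHA: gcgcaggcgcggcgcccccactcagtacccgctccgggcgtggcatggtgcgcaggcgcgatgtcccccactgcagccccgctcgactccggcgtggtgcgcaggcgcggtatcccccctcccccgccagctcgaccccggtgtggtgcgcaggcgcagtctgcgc
SDHB: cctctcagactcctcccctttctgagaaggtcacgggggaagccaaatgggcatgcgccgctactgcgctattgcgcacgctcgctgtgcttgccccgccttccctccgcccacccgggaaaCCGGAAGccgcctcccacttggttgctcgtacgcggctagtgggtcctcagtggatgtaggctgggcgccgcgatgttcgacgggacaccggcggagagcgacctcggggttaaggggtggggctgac
SDHD: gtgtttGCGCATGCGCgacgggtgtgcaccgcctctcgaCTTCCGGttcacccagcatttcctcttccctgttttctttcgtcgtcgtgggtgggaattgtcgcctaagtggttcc

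No match lay in the SDHA stretch. Counted from the start, the SDHB stretch held 1 ETS match at −128, with a YY1 match at 10 bases past the start, beyond the letters shown, and the SDHD stretch an NRF1 match at −110 and an ETS match on the other strand at −77. Over the 71 of 86 tested genes that matched the promoter table, 27 (38%) held at least 1 of these motifs within the window from 250 bases before to 50 bases after the start, against 12.4% of 27305 promoters. The 27305 promoters include those of genes that were not tested. The share over all tested genes was not computed, so the difference is not read as particular to these genes. The windows of the 71 genes had a median GC content of 61.3%, against 58.3% for all. The ETS motif was the most frequent, in 21 (29.6%) against 10.7%, and the NRF1 and YY1 motifs were in 4 each (5.63%), against 1.36% and 0.916%. By response in NaB/Ctl, a match was present in 2 of 11 genes that were higher, 10 of 25 that were lower and 15 of 35 that were not called.

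Butyrate changed the level of about as many oxidative phosphorylation genes as it left uncalled, lowered more than it raised, and moved few by more than 2-fold. In RNA from whole cultures, fewer cells and less RNA per cell cannot be told apart, and the 75th percentile sets each array to the same total scale. In NaB/Ctl, 45 of the 86 genes passed an adjusted p of 0.01, 14 of them higher and 31 lower, where 69.6% of all tested genes passed, 40.6% higher and 29.0% lower. A change of more than 2-fold was found for 5 of them, against 32.4% of all genes: ATP5G1, ATP5J2 and NDUFC1 were lower (background 11.5%) and COX7A1 and COX8C higher (background 21.0%). In DoxyNaB/Doxy, 49 genes passed (18 higher and 31 lower, background 68.4%, 38.1% and 30.3%), and 4 of those changed by more than 2-fold (background 31.2%, 18.7% higher and 12.5% lower). In both comparisons 42 genes were called, each in the same direction. The share of all tested genes called in both was not computed, so this count is not read as particular to these genes.

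The median difference over the 86 genes was −0.15 in NaB/Ctl, where all tested genes had a median of 0.17, and −0.09 in DoxyNaB/Doxy, where all genes had 0.11. Without experiment 3 the NaB/Ctl median was −0.09, and without experiment 2 the DoxyNaB/Doxy median was −0.017. Their probes are bright, and 63 of the 86 genes lay in the highest of 10 equal classes of all tested genes by level. In that class, all genes had a median NaB/Ctl difference of −0.15, with 23.2% higher and 41.0% lower, and the 63 had −0.09. The split into higher and lower genes moved with the scaling. It was 25 higher and 28 lower in NaB/Ctl and 30 and 27 in DoxyNaB/Doxy after quantile normalization, and 2 and 63, and 2 and 35, after scaling each array to its median, which moved the median of all genes to −0.58 and −0.45. With normexp background correction it was 6 and 24 in DoxyNaB/Doxy. Set against the median of all genes, the median of the 86 genes lay at −0.32 in NaB/Ctl and again at −0.32 with median scaling, but at 0.04 after quantile normalization.

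**Figure D1:**
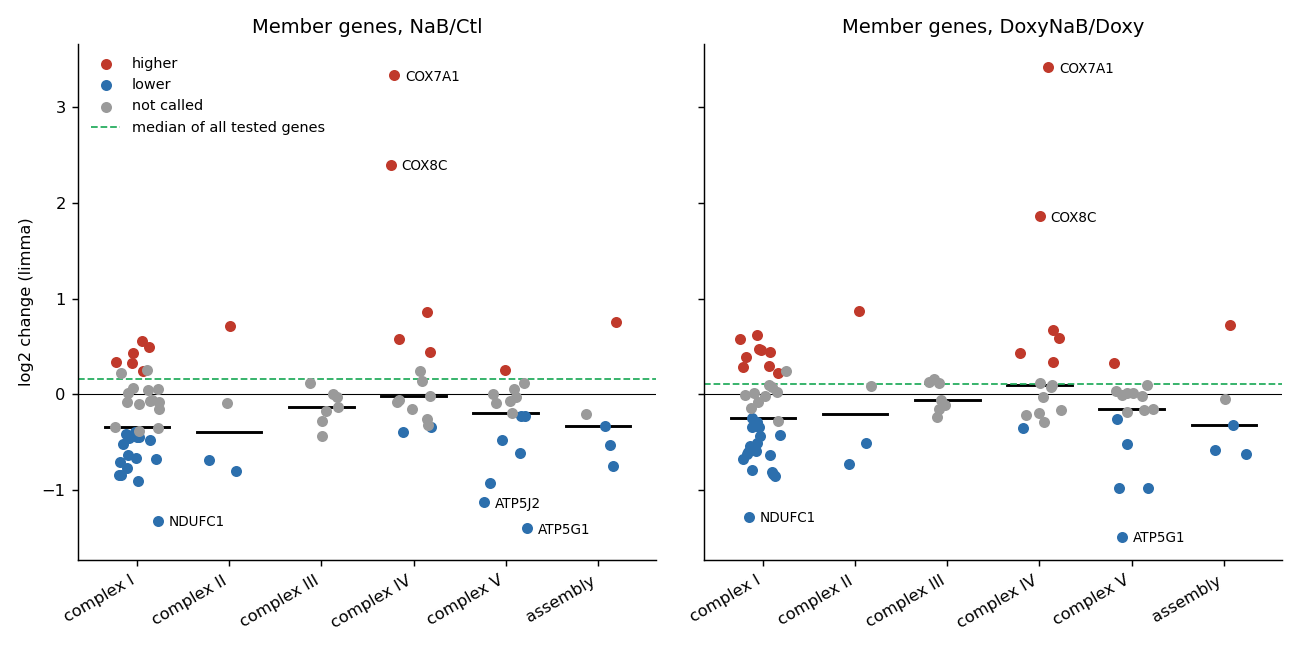
Log2 difference of each tested gene in NaB/Ctl and in DoxyNaB/Doxy, 1 point a gene, grouped by complex and with the assembly factors apart (the 3 genes that are not standard subunits are left out); red and blue points are higher and lower at an adjusted p under 0.01 in limma, grey points are not called, black bars are group medians and the dashed line is the median of all tested genes. Complex I and V spread mainly below 0 and complex III stays near 0, on levels scaled to the 75th percentile; scaling to the median shifted all genes down, the median of all to −0.58 in NaB/Ctl.

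Complex I, the NADH dehydrogenase that begins the chain, had 37 tested genes, of which 6 rose and 16 fell in NaB/Ctl and 9 rose and 18 fell in DoxyNaB/Doxy. The shares of all tested genes against which this and the later counts are read were 40.6% higher and 29.0% lower in NaB/Ctl and 38.1% and 30.3% in DoxyNaB/Doxy. The median difference of complex I was −0.34 in NaB/Ctl, and the medians of the 6 single experiments ran from −0.49 to 0.09. It was −0.18 without experiment 1 and −0.025 in experiments 5 and 6 alone, and in DoxyNaB/Doxy it was −0.24, or −0.14 without experiment 2. Nuclear core subunits, which carry the flavin and the iron-sulfur clusters, did not move together. Among them NDUFS3, NDUFV2 and NDUFS8 fell (−0.84, −0.68 and −0.48), NDUFS7 and NDUFV1 were 0.25 and 0.56 higher (−0.50 and −0.19 under median scaling, the NDUFS7 call being lost in 10 of 19 settings and turned in 1), and NDUFS1 was at −0.10 (adjusted p = 0.284). NDUFV1 and NDUFV2 are partners in the NADH-binding tip of the enzyme, and they went in opposite directions in both butyrate comparisons, with NDUFV1 at 0.47 (−0.089 under median scaling) and NDUFV2 at −0.63 in DoxyNaB/Doxy. Among the 30 supernumerary subunits, which surround the core and serve its assembly and stability, 4 rose and 12 fell in NaB/Ctl.

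The greatest fall in complex I was that of NDUFC1, a small membrane subunit. Its lowest, median and highest levels over the 6 arrays were 4.02, 4.24 and 4.85 in Ctl and 2.62, 2.93 and 3.51 in NaB. With doxycycline they were 3.87, 4.16 and 4.79 in Doxy and 2.46, 2.96 and 3.47 in DoxyNaB. The arrays with and without butyrate did not overlap in either pair, and NDUFC1 was lower, at −1.32 ± 0.08 (SE; 2.49-fold; adjusted p = 8.59e-11) in NaB/Ctl and by −1.28 ± 0.08 (adjusted p = 1.3e-10) in DoxyNaB/Doxy. NDUFS5 and NDUFS6, accessory subunits needed for complex I assembly, fell next most. NDUFS5 spanned 4.68, 4.90 and 5.40 in Ctl and 3.73, 3.98 and 4.42 in NaB (−0.90 ± 0.09, adjusted p = 4.43e-08). NDUFS6 spanned 2.97, 3.14 and 3.78 in Ctl and 2.08, 2.34 and 2.78 in NaB (−0.84 ± 0.08, adjusted p = 1.27e-08). For both genes all NaB arrays were below all Ctl arrays, and the falls with doxycycline were −0.85 and −0.81.

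The rises in complex I were smaller and their groups overlapped. NDUFV1 had levels of 3.81, 4.05 and 4.55 in Ctl and 4.52, 4.61 and 5.03 in NaB (0.56 ± 0.08, adjusted p = 3.58e-06). NDUFA8, a supernumerary subunit held by disulfide bonds in the intermembrane space, had 3.84, 4.01 and 4.37 in Ctl and 4.20, 4.49 and 5.01 in NaB (0.50 ± 0.08, adjusted p = 1.74e-05). NDUFA2 had 3.45, 3.69 and 4.26 in Ctl and 3.85, 4.08 and 4.79 in NaB (0.43 ± 0.08, adjusted p = 0.000132). In each of these the NaB array was above the Ctl array of its own experiment in 6 of 6 experiments, although the highest Ctl array reached into the NaB range. When arrays were scaled to the median the 3 values turned to −0.19, −0.25 and −0.32, and relative to the median of all genes they were 0.40, 0.33 and 0.26 with the 75th percentile.

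Complex II oxidizes succinate and belongs to the respiratory chain and the tricarboxylic acid cycle alike. Its catalytic flavoprotein SDHA rose and its membrane anchors SDHC and SDHD fell with butyrate, while the iron-sulfur subunit SDHB was not called. SDHA spanned 2.38, 2.85 and 2.90 in Ctl and 3.30, 3.44 and 3.73 in NaB, and 2.47, 2.61 and 2.77 in Doxy and 3.20, 3.44 and 3.76 in DoxyNaB. No butyrate array overlapped an array without it, and the differences were 0.72 ± 0.08 (1.64-fold; adjusted p = 1.65e-07) and 0.87 ± 0.08 (adjusted p = 1.23e-08). The NaB/Ctl value was −0.03 when arrays were scaled to the median and 0.55 relative to the median of all genes. All 4 SDHA probes were higher, by 0.67 to 1.04 in NaB/Ctl.

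SDHD spanned 2.62, 2.80 and 2.94 in Ctl and 1.70, 2.01 and 2.23 in NaB, with no overlap (−0.80 ± 0.08, adjusted p = 6.22e-08). SDHC spanned 2.58, 2.73 and 3.14 in Ctl and 1.70, 2.08 and 2.47 in NaB, again with no overlap (−0.69 ± 0.11, adjusted p = 1.71e-05). With doxycycline the falls were −0.73 and −0.50. The 3 SDHD probes gave −0.57 to −0.80, all called, while those of SDHC gave −0.69, −0.46 and −0.26, the last not called. SDHB spanned 3.71, 3.92 and 4.16 in Ctl and 3.51, 3.77 and 4.32 in NaB, which overlapped almost wholly. Its difference was −0.09 with a 95% interval from −0.28 to 0.09 in NaB/Ctl (adjusted p = 0.335), and 0.09 from −0.09 to 0.27 in DoxyNaB/Doxy (adjusted p = 0.355). In the scan that held experiments 5 and 6 alone the SDHC value was −0.43 and was not called.

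Complex III, which passes electrons from ubiquinol to cytochrome c, had 7 tested genes and none was called in either butyrate comparison, with a background of 69.6% and 68.4%. The median was −0.13 in NaB/Ctl and −0.05 in DoxyNaB/Doxy (−0.078 without experiment 3 and 0.041 without experiment 2). UQCRC1, a core protein that builds its matrix side, was at 0.12, with a 95% interval from −0.01 to 0.25 (adjusted p = 0.0976). UQCRH, the hinge protein, was at −0.27, lower in 6 of 6 experiments, and just missed the threshold (adjusted p = 0.01 after rounding). Its second probe, about as bright, was at −0.08, lower in 3 of 6 experiments (adjusted p = 0.439). The Rieske protein gene UQCRFS1 was at −0.44 (adjusted p = 0.0542) from only 3 complete pairs, because spots marked as outliers were dropped. CYC1, cytochrome c1, a catalytic subunit of the same complex that the name rule does not include, spanned 4.53, 4.82 and 5.18 in Ctl and 3.38, 3.72 and 4.22 in NaB and was lower, at −1.08 ± 0.10 (adjusted p = 1.12e-08). Under median scaling 6 of the 7 genes were called lower in NaB/Ctl, and after quantile normalization 1 was called higher.

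Complex IV, cytochrome c oxidase, had 15 tested genes, of which 5 rose and 2 fell in NaB/Ctl and 6 rose and 1 fell in DoxyNaB/Doxy. Its median was −0.01 in NaB/Ctl, and without the tissue-restricted isoforms 3 of 12 genes rose and 2 fell. COX6A1, the ubiquitous form of subunit 6a, spanned 5.53, 5.67 and 5.86 in Ctl and 6.14, 6.43 and 7.25 in NaB. It was higher by 0.86 ± 0.16 (adjusted p = 9.38e-05) over 5 pairs, 1 Ctl spot having been dropped as an outlier, and this call was lost under median scaling (0.13), in experiments 2 to 4 alone and by the methods' t-test after correction. COX6C spanned 4.20, 4.51 and 5.15 in Ctl and 4.91, 5.04 and 5.68 in NaB (0.58 ± 0.09, adjusted p = 2.1e-05; −0.17 under median scaling). COX7A2L, which takes part in joining complexes III and IV, was higher by 0.44 and 0.43 in the 2 butyrate comparisons, and at −0.31 and −0.13 under median scaling.

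COX8A and COX7B, both small membrane subunits, were the only complex IV genes called lower in NaB/Ctl. COX8A spanned 5.53, 5.63 and 6.31 in Ctl and 5.08, 5.26 and 5.84 in NaB (−0.40 ± 0.09, adjusted p = 0.000641), and the groups overlapped. COX7B was at −0.34 (adjusted p = 0.00651), and its call was lost in 12 of 19 alternative settings. NDUFA4, long assigned to complex I and now counted in complex IV, was at 0.25 in NaB/Ctl (adjusted p = 0.0133) and 0.34 in DoxyNaB/Doxy (adjusted p = 0.0016; −0.22 under median scaling).

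Several complex IV subunits have a second form restricted to certain tissues, and 7 such forms were looked for. COX7A1, the form of subunit 7a of heart and skeletal muscle, and COX8C, the form of subunit 8 of testis, were the only members over 2-fold higher. COX7A1 spanned −7.44, −6.78 and −4.50 in Ctl, where only 2 of 6 arrays were well above background, and −4.01, −2.63 and −1.98 in NaB, where all 6 were. In Doxy it spanned −7.33, −5.91 and −4.32 (3 of 6 arrays) and in DoxyNaB −3.33, −2.49 and −1.22 (6 arrays). No butyrate array overlapped an array without it. The differences were 3.33 ± 0.34 (adjusted p = 7.61e-08) and 3.41 ± 0.34 (adjusted p = 5.61e-08), but with normexp background correction the first was 0.81 and was not called and the second was 1.40.

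COX8C spanned −4.85, −4.44 and −3.84 in Ctl and −2.46, −2.07 and −1.37 in NaB, with 5 and 6 arrays well above background. In Doxy it spanned −5.05, −4.16 and −3.44 and in DoxyNaB −3.29, −2.18 and −1.91, with 5 arrays each. The difference was 2.40 ± 0.24 in NaB/Ctl (adjusted p = 4.29e-08) and 1.86 ± 0.24 in DoxyNaB/Doxy (adjusted p = 1.21e-06), with no overlap in either pair, though with normexp they were 0.99 and 1.11. Both genes were tested only because they were bright in the butyrate groups, so that their difference is partly fixed by the filter, and both are dim. In the lowest of the 10 level classes, where COX7A1 lies, the median of all genes was 1.08 in NaB/Ctl, and in the next class, where COX8C lies, it was 0.71. COX6B2, a testis form, was tested and stood at −0.26 (adjusted p = 0.251). COX4I2, COX6A2, COX7B2 and NDUFA4L2 were well above background on 2 to 4 of the 6 arrays of each group and were not tested.

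The ubiquitous partners did not show the same change. COX7A2 spanned 5.00, 5.07 and 5.52 in Ctl and 4.74, 5.06 and 5.64 in NaB, which overlapped throughout, and its difference was −0.01 with a 95% interval from −0.19 to 0.16. The COX7A1 and COX7A2 probes matched at no more than 20 of 60 bases, and those of COX8C and COX8A at 18.

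**Figure D2:**
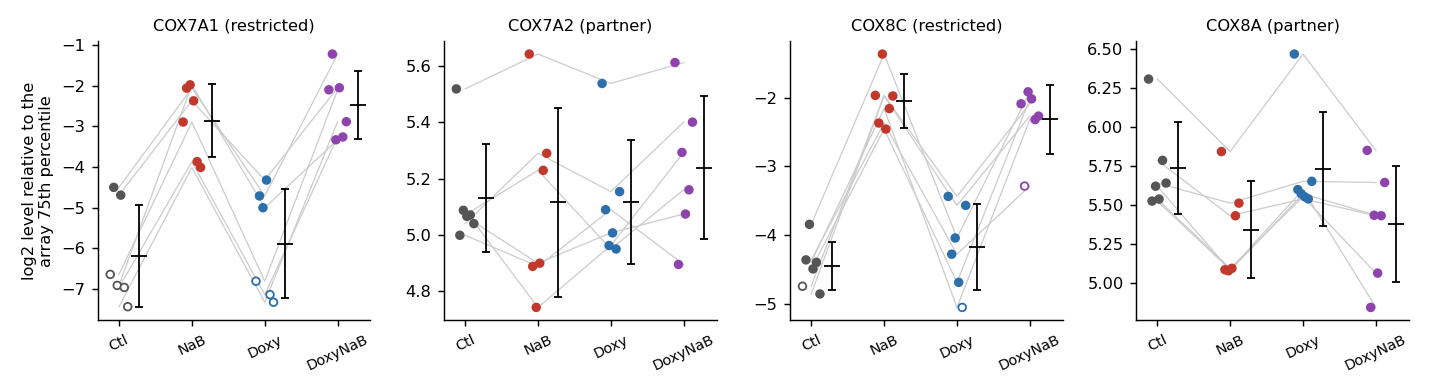
Level of COX7A1, COX7A2, COX8C and COX8A on each of the 24 arrays, as log2 relative to the 75th percentile of the array, by treatment, with open points for arrays where the probe was not well above background, grey lines joining the arrays of 1 experiment, bars for the mean ± SD of 6 arrays and a separate y axis for each gene. COX7A1 and COX8C are dim and higher in both butyrate groups, COX7A2 overlaps between all groups and COX8A is slightly lower with butyrate.

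Complex V, the ATP synthase, had 15 tested genes, of which 1 rose and 7 fell in NaB/Ctl and 1 rose and 5 fell in DoxyNaB/Doxy, with medians of −0.20 and −0.15. Without experiment 3 the first was −0.11, and without experiment 2 the second was −0.059. The 5 genes of F1, the catalytic head, hardly moved: only ATP5B, the catalytic beta subunit, was called, at −0.23 (adjusted p = 0.00422; lost in 10 of 19 settings), and none was called in DoxyNaB/Doxy. The larger falls were in the membrane part and the stalk. The 3 genes for subunit c, introduced above by their probes, did not change together.

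ATP5G1 spanned 3.80, 4.34 and 5.01 in Ctl, 2.50, 2.90 and 3.67 in NaB, 3.95, 4.20 and 4.87 in Doxy and 2.20, 2.85 and 3.39 in DoxyNaB. All butyrate arrays were below all arrays without it. The gene was lower, at −1.40 ± 0.10 (2.63-fold; adjusted p = 5.62e-10) in NaB/Ctl and by −1.49 ± 0.10 (2.80-fold; adjusted p = 2.4e-10) in DoxyNaB/Doxy. ATP5G2 spanned 4.25, 4.55 and 5.41 in Ctl, 3.37, 3.70 and 4.09 in NaB, 4.07, 4.46 and 5.03 in Doxy and 2.90, 3.51 and 4.03 in DoxyNaB. Again no butyrate array overlapped its counterpart group, and the falls were −0.92 ± 0.09 (adjusted p = 6.28e-08) and −0.98 ± 0.09 (adjusted p = 2.83e-08). ATP5G3 went the other way. It spanned 5.02, 5.11 and 5.31 in Ctl, 5.13, 5.37 and 5.69 in NaB, 4.86, 4.99 and 5.33 in Doxy and 4.98, 5.44 and 5.74 in DoxyNaB, with overlap in both pairs. Its differences were 0.26 ± 0.07 (adjusted p = 0.00421; −0.49 under median scaling) and 0.33 ± 0.07 (adjusted p = 0.000628; −0.23 under median scaling). Relative to the median of all genes the ATP5G3 difference in NaB/Ctl was 0.09. Its NaB/Ctl call was lost in 9 of 19 settings and turned in 1, and its DoxyNaB/Doxy call was lost in 6 and turned in 1.

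ATP5J2, subunit f of the membrane part, spanned 3.89, 4.10 and 4.77 in Ctl and 2.74, 2.93 and 3.77 in NaB, with 3.81, 3.94 and 4.62 in Doxy and 2.25 to 3.71 in DoxyNaB. It was lower, at −1.13 ± 0.11 (2.18-fold; adjusted p = 3.09e-08) and −0.98 ± 0.11 (1.97-fold; adjusted p = 2.16e-07), and its second probe gave −0.95 and −0.74. ATP5J2 therefore fell on either side of a 2-fold limit in the 2 comparisons, but the interaction, which tests that difference, was −0.15 (adjusted p = 0.774).

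**Figure D3:**
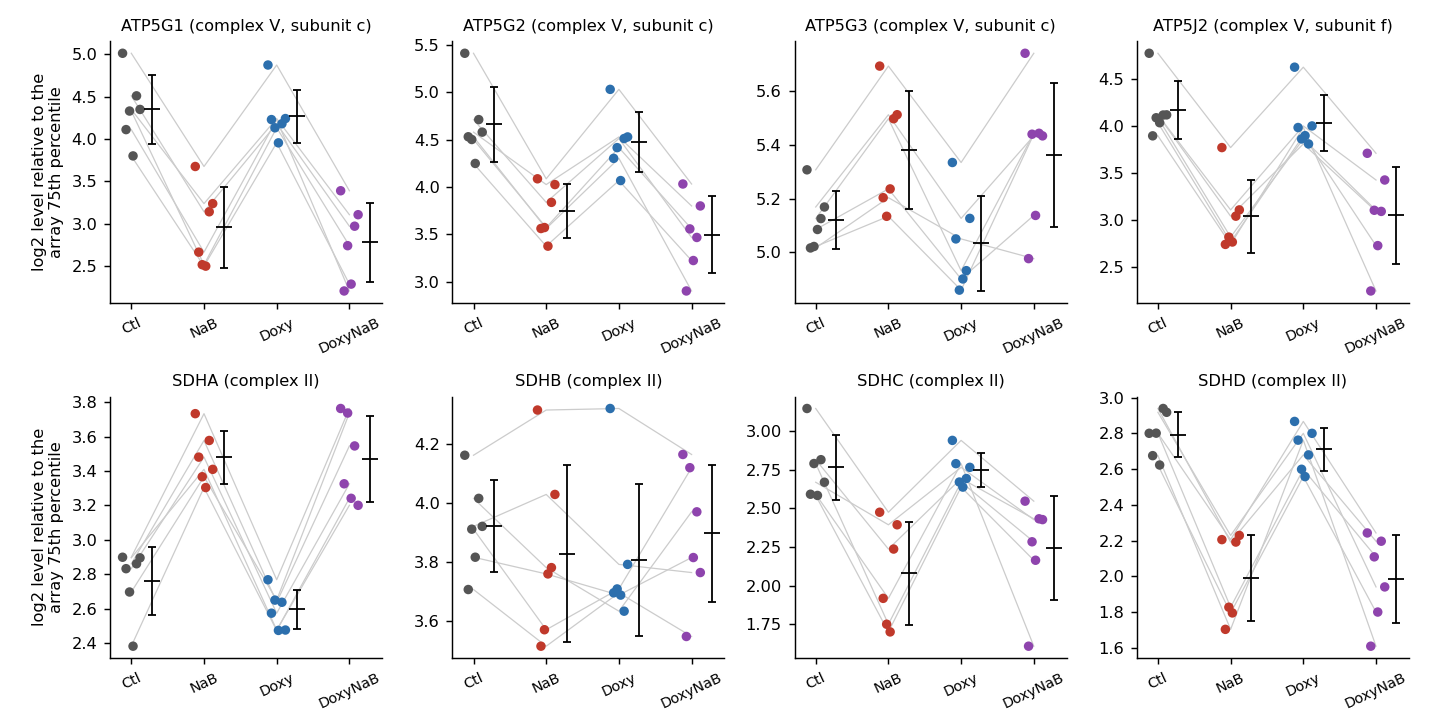
Level of the 3 subunit c genes ATP5G1, ATP5G2 and ATP5G3, of ATP5J2 and of SDHA, SDHB, SDHC and SDHD on each of the 24 arrays, as log2 relative to the 75th percentile of the array, by treatment. Grey lines join the arrays of 1 experiment and black bars give the mean ± SD of 6 arrays; each gene has its own y axis. ATP5G1 and ATP5G2 are lower and SDHA higher with butyrate, without overlap within either pair on this scaling, while SDHA and ATP5G3 turn to −0.03 and −0.49 in NaB/Ctl when arrays are scaled to the median.

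Among the assembly factors taken in by the name rule, 1 rose and 3 fell in NaB/Ctl. NDUFAF1, an early factor of complex I assembly, was higher by 0.76 ± 0.06 in 6 of 6 experiments (adjusted p = 2.08e-09), but at 0.0071 and not called under median scaling. ATP5SL was lower, at −0.74 ± 0.08 (adjusted p = 1.96e-07). Of the remaining 3 genes, COX4NB, which encodes a membrane protein complex subunit of the endoplasmic reticulum and only neighbours COX4I1 in name and genome, was at −0.46.

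No oxidative phosphorylation gene was called in a comparison of doxycycline. None of the 86 genes passed an adjusted p of 0.01 in limma for Doxy/Ctl (background 0.554%), DoxyNaB/NaB (background 2.73%) or the interaction (background 1.36%), and 4, 2 and 2 had an unadjusted p under 0.05 (background 13.3%, 16.1% and 12.5%). The methods' t-test at an unadjusted 0.01 called 1, 0 and 0. The Doxy/Ctl differences lay between −0.21 (ATP5SL, adjusted p = 0.287) and 0.33 (NDUFA6). In DoxyNaB/NaB they lay between −0.27 (COX8C) and 0.39 (COX7A1), and the smallest adjusted p was 0.178, for ATP5G2 at −0.25. The interaction lay between −0.28 (NDUFB10) and 0.54 (COX8C), with a smallest adjusted p of 0.299 for ATP5S.

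These comparisons were narrow enough to bound most of the differences. The 95% interval of the Doxy/Ctl difference lay wholly within 0.5 log2 units of 0 for 82 of the 86 genes, against 72.1% of all genes. It lay within 1 for 85 (all genes 94.1%), COX7A1 being the exception. For DoxyNaB/NaB the counts were 78 (all genes 69.5%) and 85 (all genes 94.0%), again with COX7A1 as the exception. For the interaction they were 73 (all genes 52.4%) and 83 (all genes 84.4%), and the genes beyond 1 were ATP5L2, COX7A1 and COX8C. The 2 butyrate comparisons are shown side by side for each gene; they share no array but come from the same 6 experiments, while the doxycycline comparisons reuse the same control and butyrate arrays.

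**Figure D4:**
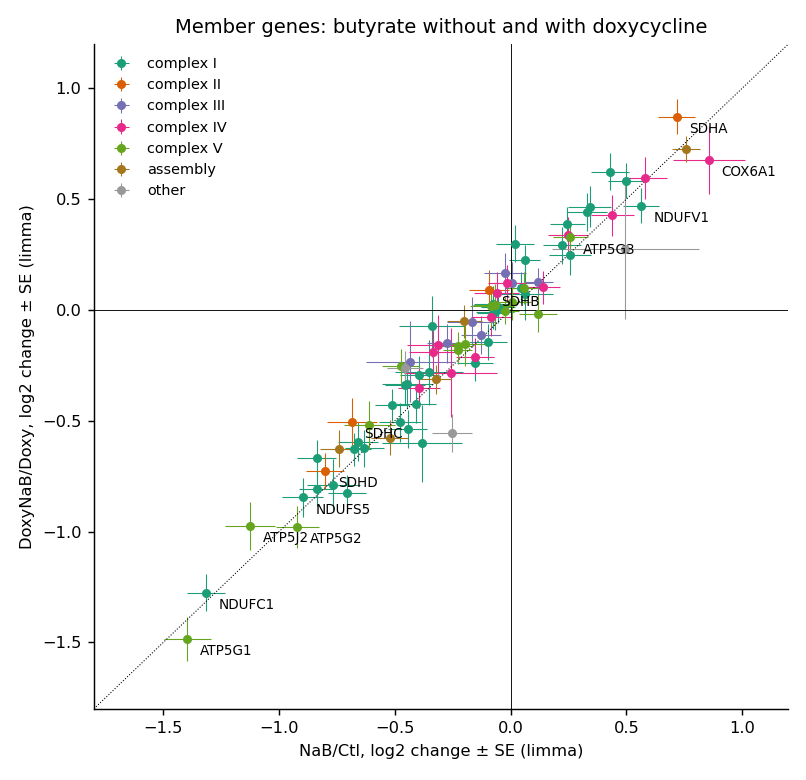
Log2 difference of each tested gene in NaB/Ctl (x axis) against DoxyNaB/Doxy (y axis), coloured by complex, assembly factors or other genes, with bars for the SE and a dotted line of equal change. COX7A1 (3.33 and 3.41) and COX8C (2.40 and 1.86) lie outside the axes and are left out. Of the 86 genes, 42 were called in both comparisons in the same direction and none had a called interaction. The share of all tested genes called in both was not computed.

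The array also held 5 probes that map to the mtDNA, which is transcribed inside the mitochondrion and supplies subunits of complexes I, III, IV and V. Those named in the files are ND5 and ND2, membrane subunits of complex I that pump protons. The other 3 are given by position only. None was saturated, and all were well above background on all 24 arrays. The first 30 bases of 2 of these probes are shown, in lower case throughout, because both were lower with doxycycline while none of the 86 nuclear genes was called. The ND5 probe lies at chrM:13887-13946 and the unnamed one, for a clone described in the files as chimeric, at chrM:3369-3428, both on the plus strand in NCBI36.
ND5: tatgcacattttatttctccaacatactcg
BC061915: tgcttaccgaacgaaaaattctaggctata

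With doxycycline, ND5 and the probe at 3369 to 3428 were lower. The ND5 probe spanned 2.78, 3.27 and 3.86 in Ctl and 1.84, 2.25 and 2.49 in Doxy, without overlap and lower in 6 of 6 experiments (−1.14, adjusted p = 0.000199). The probe at 3369 to 3428 (BC061915) spanned 3.63, 4.06 and 4.50 in Ctl and 0.85, 1.49 and 2.06 in Doxy, also without overlap (−2.58, adjusted p = 1.85e-07). With butyrate present, BC061915 spanned 3.61, 4.02 and 4.56 in NaB and 2.26, 2.87 and 3.12 in DoxyNaB (−1.27, adjusted p = 0.000144; lost in 4 of 19 settings), and its interaction was −1.31 (adjusted p = 0.00551), a call lost in 13 of 19 settings. The ND5 probe did not pass in DoxyNaB/NaB (−0.39, adjusted p = 0.149). The Doxy/Ctl call of ND5 was lost in 6 of 19 settings, and that of BC061915 in experiments 5 and 6 alone and by the methods' t-test after correction.

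The other mtDNA probes did not pass in Doxy/Ctl. ND2 was at −0.17 (adjusted p = 0.503) and the probe at 15588 to 15646 (AK311512) at −0.23 (adjusted p = 0.233). The probe A_23_P317056, at chrM:14449-14508 on the minus strand, went the other way in 6 of 6 experiments (1.15) but did not pass (adjusted p = 0.0682). The probes on the plus strand were all below 0 in Doxy/Ctl, and no mtDNA probe was called higher. No group received doxycycline without carrying the inducible vector, so the drug and DN-Tcf4 cannot be told apart in this design. In the same Doxy arrays the TCF7L2 probe was at −0.17 against Ctl, and other TCF7L2 probes differed in direction. AXIN2 was at −0.58 there, a call lost in 14 of 19 settings. The part of either in the mtDNA values was not tested.

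With butyrate, ND5 and AK311512 were higher in both comparisons and the other mtDNA probes varied. ND5 spanned 4.25, 4.58 and 5.27 in NaB and 3.39, 4.41 and 4.84 in DoxyNaB, above Ctl and Doxy without overlap (1.30, adjusted p = 1.38e-07, and 2.05, adjusted p = 2.74e-10). AK311512 was higher by 0.66 (adjusted p = 9.72e-07; −0.09 under median scaling) and 0.69 (adjusted p = 4.99e-07). ND2, at levels of 7.26, 7.57 and 8.12 in Ctl and 7.44, 7.91 and 8.34 in NaB, was at 0.28 (adjusted p = 0.0119) and 0.33 (adjusted p = 0.00368; −0.23 under median scaling), the second call being lost in 10 of 19 settings and turned in 1. BC061915 was at 0.016 in NaB/Ctl (adjusted p = 0.939), higher in 3 of 6 experiments, but higher by 1.32 in DoxyNaB/Doxy (adjusted p = 1.91e-06). The minus-strand probe was lower, at −1.06 (adjusted p = 0.00342) and −1.73 (adjusted p = 3.67e-05), the first being lost in 10 of 19 settings.

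**Figure D5:**
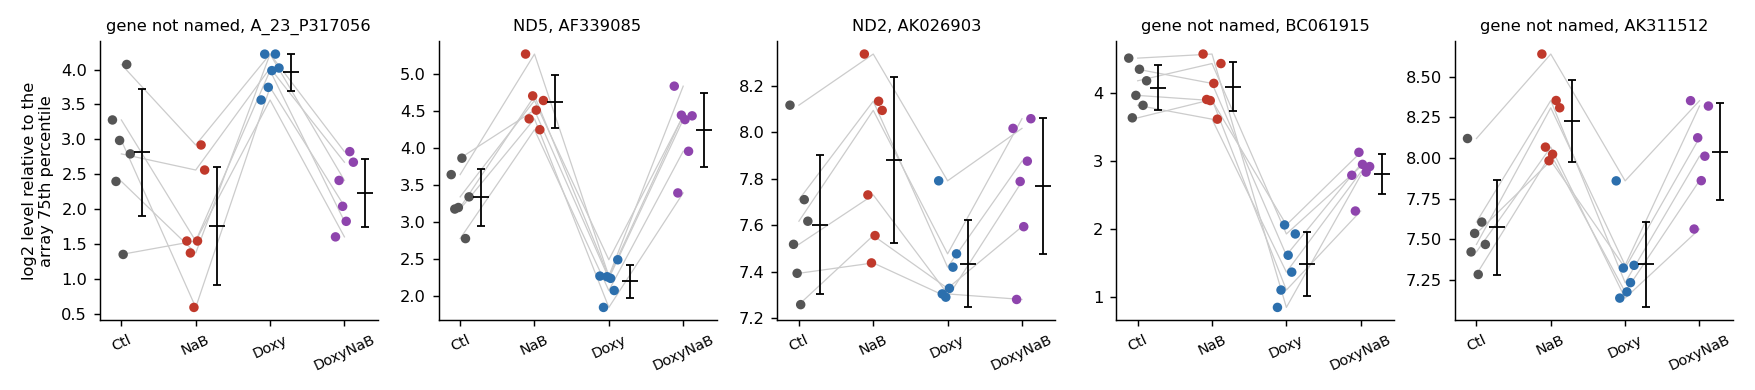
Level of the 5 mtDNA probes on each of the 24 arrays, as log2 relative to the 75th percentile of the array, by treatment; grey lines join the arrays of 1 experiment and black bars give the mean ± SD of 6 arrays, and each probe has its own y axis. The probes of ND5 and BC061915 are lower in Doxy than in Ctl without overlap, and ND5 is higher in both butyrate groups, while ND2 and AK311512 differ by less than 1 unit between group means.

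The other genes of mitochondrial energy metabolism were followed by list, each read against the 40.6% of all genes higher and 29.0% lower in NaB/Ctl. Of 7 further subunits and carriers of the chain, 1 rose and 3 fell in NaB/Ctl (median −0.10). C15orf48, whose product can take the place of NDUFA4 in complex IV, was higher by 3.14 ± 0.33 (adjusted p = 8.18e-08), from −7.01, −5.61 and −5.00 in Ctl with 2 of 6 arrays well above background to −3.24, −2.67 and −2.24 in NaB with 6. It was tested only because it was bright in the butyrate groups, so that its difference is partly fixed by the filter, and with normexp it was 0.78. Of 27 tested assembly factors 4 rose and 12 fell (median −0.22). Among them FAM36A (COX20, a chaperone of complex IV subunit 2) was lower (−1.75 ± 0.17), as were UQCC (−1.02) and TMEM126B, a factor of complex I assembly (−1.01). NUBPL, SURF1 and COX17 were higher by 0.42, 0.39 and 0.39, and at −0.33, −0.36 and −0.36 under median scaling.

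Of 15 tested genes for mitochondrial biogenesis and mtDNA expression, 4 rose and 7 fell (median −0.28). PPRC1, a coactivator of NRF1, spanned 2.92, 3.20 and 3.64 in Ctl, 0.69, 0.86 and 1.10 in NaB, 2.91, 3.08 and 3.47 in Doxy and 0.61, 0.64 and 1.02 in DoxyNaB. It was lower, at −2.33 ± 0.06 (5.02-fold; adjusted p = 1.8e-15) and −2.36 ± 0.06 in the 2 comparisons, without overlap. GABPB1, a subunit of the ETS factor GABP, was lower, at −0.99, and NRF1 itself at −0.81. TFB2M, which opens mtDNA promoters, was lower, at −0.98, while its relative TFB1M, which methylates mitochondrial ribosomal RNA, was higher by 0.58 (−0.17 under median scaling). POLG2 and MTERF were higher by 0.69 and 0.66 (−0.06 and −0.09 under median scaling). PPARGC1A and ESRRG were not tested.

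The 13 enzymes of the tricarboxylic acid cycle were all tested, and 5 rose and 2 fell (median 0.17, the same as all genes). SUCLG1, the shared alpha subunit of succinate-CoA ligase, was higher by 0.95 and its GTP-specific beta partner SUCLG2 lower, at −1.08. IDH3A and IDH3B, subunits of 1 enzyme, likewise differed, at 0.73 and −0.69, and OGDH was at 0.73, a call lost in 9 of 19 settings and turned in 1; under median scaling IDH3A and OGDH stood at −0.02, and SUCLG1 at 0.20, where it was not called. Of 9 tested carriers and porins 2 rose and 2 fell. SLC25A4, the heart and muscle form of the ADP/ATP carrier, spanned 2.08, 2.34 and 2.54 in Ctl, 4.44, 4.62 and 5.05 in NaB, 2.10, 2.31 and 2.59 in Doxy and 4.36, 4.66 and 4.98 in DoxyNaB, with differences of 2.37 ± 0.08 (5.17-fold; adjusted p = 1.8e-14) and 2.30 ± 0.08. UCP2 was higher by 1.02, a call lost in 4 of 19 settings, and VDAC1 and VDAC3, porins of the outer membrane, were lower, at −1.12 and −0.35. None of these lists had a gene called in Doxy/Ctl.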

How the data were processed

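RNA from 24 cultures (4 treatments, 6 numbered experiments) was labelled and hybridized by the authors to 1-colour Agilent human 4x44K arrays, scanned and quantified with Agilent Feature Extraction 9.5.3.1. Per the file headers, the deposited values are spot intensities on a linear scale, of which the processed signal, already background-subtracted, was used here; probe positions are in the build of the files, hg18 (NCBI36), and the authors worked on in GeneSpring, whose output was not used here. Arrays have no read depth, and their number limits the precision.

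From the deposited intensities, levels were computed as log2 of the processed signal minus log2 of the array's 75th percentile over non-control spots. Control spots and spots marked as outliers were left out, and spots of 1 probe were averaged. A probe entered the test if some group had it well above background in all its 6 experiments. Where spots were dropped the fit used the remaining arrays. limma 3.58.1 (R 4.3.3; lmFit and eBayes) was fitted to all 24 arrays with treatment and with the experiment number as a block, and p-values were adjusted by Benjamini-Hochberg over all 18983 probes tested. Genes were called at an adjusted p of 0.01, and as a second rule also above 2-fold. A gene was represented by its tested probe with the highest mean level. The scripts were tested on simulated data. Python 3.11.15 with numpy 2.4.6, pandas 2.3.3 and matplotlib 3.10.9 was used elsewhere.

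The experiment numbers pair the arrays: deviations from the group means correlated within an experiment with r of 0.219 to 0.853 over tested probes, except NaB and DoxyNaB of experiment 3 (−0.224), and the authors also used a paired test. Without the block, 30 instead of 45 genes were called in NaB/Ctl and 30 instead of 49 in DoxyNaB/Doxy.

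Genes were named by a rule: in each complex the 3 largest rises and falls in NaB/Ctl with 1 sign in 6 of 6 experiments, every gene over 2-fold, all of complex II, and the tissue-restricted isoforms with their partners; likewise the 3 largest changes of each further list. The genes of complex I cores, complex III, assembly and the mtDNA outside that rule, COX7A2L, ATP5B, COX4NB and NRF1 were named after their values were seen. Members and lists were chosen with earlier results of these data known. Array gene names were matched to current symbols through RefSeq, 108 probes by accession and 2 by an older symbol. Alternatives were other scalings, background correction, filters, fits, blocks and left-out arrays.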

Additional observations from a re-analysis of the deposited data

Results flagged for a closer look

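For the genes named above, the highest and lowest array of each group of 6 was compared with its nearest neighbour by Dixon's ratio at the 95% level. Of 116 checks 27 passed, where chance gives about 1 in 20. In 25 of the 27 the array that stood apart was that of experiment 1 and was the highest of its group.

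Among Ctl arrays, experiment 1 stood highest for ATP5J2 (4.77), COX4I1 (6.02), COX7A2 (5.52), COX7B (4.71), COX8A (6.31), NDUFA2 (4.26), NDUFA4 (5.40), NDUFC1 (4.85) and NDUFS6 (3.78). Among NaB arrays it stood highest for ATP5J2 (3.77), COX6C (5.68) and NDUFV1 (5.03). Among Doxy arrays it stood highest for ATP5G1 (4.87), ATP5J2 (4.62), COX4I1 (6.02), COX6B1 (5.74), COX6C (5.47), COX7A2 (5.54), COX7B (4.90), COX8A (6.47), NDUFA2 (4.32), NDUFS5 (5.46), NDUFS6 (3.68), NDUFV1 (4.55) and SDHB (4.32). The exceptions were COX6B2, where the Doxy array of experiment 1 was the lowest (1.12), and COX8C, where the DoxyNaB array of experiment 2 was the lowest (−3.29). The experiment is a block in the fit, but a block does not remove an offset between the slides of experiment 1. There Ctl and Doxy lay on a different slide from NaB and DoxyNaB. Without experiment 1 there were 40 genes called in NaB/Ctl and 44 in DoxyNaB/Doxy.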

How the results depend on the processing

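The counts of called genes depended most on the scaling. In NaB/Ctl (45 called, 14 higher, 31 lower, 5 over 2-fold) scaling each array to its median, with signals under 5 raised to 5, gave 2 higher, 63 lower and 39 over 2-fold, quantile normalization 25 higher, and normexp 27 called with 16 lower. The filter on all 24 arrays left 3 over 2-fold, experiments 5 and 6 alone 21 called with 11 lower, and experiments 2 to 4 alone 5 higher. In DoxyNaB/Doxy (49, 18, 31 and 4) median scaling gave 2 higher and 23 over 2-fold, quantile normalization 30 higher, and normexp 30 called with 6 higher. The filter on all 24 arrays left 2 over 2-fold, a fit to only the arrays compared 11 higher, experiments 5 and 6 alone 24 called (10 higher, 14 lower), experiments 2 to 4 alone 28 called (7 higher), and the methods' t-test after Benjamini-Hochberg 27 called (8 higher, 19 lower). Without the replicate block, NaB/Ctl had 8 higher, and DoxyNaB/Doxy 30 called, 10 higher and 20 lower; with the pairing by experiment removed, no gene was called in the doxycycline comparisons either. Leaving out 1 experiment at a time gave 40 to 44 called, 10 to 16 higher, 28 to 31 lower and 5 over 2-fold in NaB/Ctl, and 38 to 47 called, 14 to 21 higher, 23 to 32 lower and 4 to 6 over 2-fold in DoxyNaB/Doxy. Doxy/Ctl, DoxyNaB/NaB and the interaction had 0 called genes in every setting run. All reversals among the called genes named in the text were under median scaling. In NaB/Ctl they were ATP5G3 (−0.49), COX6C (−0.17), COX7A2L (−0.31), NDUFS7 (−0.50), NDUFA2 (−0.32), NDUFA8 (−0.25), NDUFV1 (−0.19), SDHA (−0.033), COX17 (−0.36), IDH3A (−0.017), MTERF (−0.093), NUBPL (−0.33), OGDH (−0.019), POLG2 (−0.062), SURF1 (−0.36), TFB1M (−0.17) and AK311512 (−0.093). In DoxyNaB/Doxy they were ATP5G3 (−0.23), COX7A2L (−0.13), NDUFS7 (−0.17), NDUFA4 (−0.22), NDUFV1 (−0.089), SURF1 (−0.22), TFB1M (−0.17) and ND2 (AK026903, −0.23). Median scaling itself moved the median of all genes by construction; the causes of the other shifts were not tested. Without the NaB array of experiment 3 and the DoxyNaB array of experiment 2, whose negative controls were the brightest, 49 and 46 genes were called; this setting and the split by scan were chosen after seeing the data. Signal over background limits COX7A1, COX8C, C15orf48 and the dim UQCRB probe described below, which were not well above background on all control arrays.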

Other observations

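Of the 16 genes with several probes, 3 had a dim second probe that moved unlike the bright one in NaB/Ctl. The bright UQCRB probe had levels of 4.39, 4.60 and 5.19 in Ctl (lowest, median, highest) and 4.14, 4.40 and 5.34 in NaB (−0.17, adjusted p = 0.154), while the dim one rose from −4.90, −4.37 and −3.53 to −3.69, −2.59 and −1.46 (1.74, adjusted p = 5.27e-08 in limma). The dim UQCRB probe entered the test only through DoxyNaB, a butyrate group where it was high, so the filter favours a rise with butyrate. It was not well above background on all Ctl or all NaB arrays. For COX6B2 the bright probe was at −0.26 and the dim one at 1.54 (adjusted p = 4.19e-10). For NDUFC2 they were at 0.26 (adjusted p = 0.0173) and 0.96 (adjusted p = 7.19e-06). By level the dim probes of COX6B2, UQCRB and NDUFC2 fall in the 3 lowest of the 10 level classes. There all genes had median NaB/Ctl differences of 1.08, 0.71 and 0.46, so a rise is common at these levels. Whether the dim probes differ from other dim probes was not tested. They were chosen for mention after their values were seen.

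Of the 27 tested assembly factors on the list, 1 was called lower and 1 higher in DoxyNaB than in NaB. Of all tested genes, 2.03% were lower and 0.69% higher there. The lower one was BCS1L, the chaperone that inserts the Rieske protein into complex III (−0.49, adjusted p = 0.00037 in limma). BCS1L fell with butyrate alone (−0.92, adjusted p = 3.8e-09, 5 pairs) and with doxycycline present (−1.38, adjusted p = 1.52e-11), and the interaction did not pass (0.46, adjusted p = 0.0225).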
